A study of Homo sapiens with 9 samples.

Results

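The genes described here are 36 members of the ATF4 amino acid response in human breast cancer cells: 5 transcription factors, 4 stress effectors and growth brakes, 8 enzymes of amino acid and folate metabolism, and 19 cytosolic aminoacyl-tRNA synthetases. They were picked by name from a pathway, with earlier results of these data known, and all 36 were found among the 60240 gene rows of the count table and among the 17058 genes with enough counts to test. MDA-MB-231 is an established triple-negative breast cancer line, meaning that it lacks the usual hormone receptors and HER2 amplification. A lentiviral, doxycycline-inducible construct gave the cells either GFP-luciferase with oestrogen receptor β1 (ERβ1, encoded by ESR2) or GFP-luciferase alone. The study asked how ERβ1 changes gene expression with and without a ligand.

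The 3 groups had 3 libraries each. ERβ1 cells with CLI received doxycycline and the ligand CLI, ERβ1 cells received doxycycline without the ligand, and control cells carried the vector without the receptor and received doxycycline. All groups thus shared the construct's reporter, and doxycycline was given at 100 ng/ml for 3 days in every group. CLI was given for 24 hours. The name CLI is not spelled out in the labels, its dose is not given in the sources used here, and no control cells with CLI are among the samples, so an effect of CLI that does not need the receptor cannot be told apart from one that does. The labels do not say whether the 3 libraries of a group came from separate cultures, so p-values measure the spread between these libraries, which may be technical.

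When amino acids run short, or when unfolded protein builds up in the endoplasmic reticulum (ER), kinases phosphorylate the translation factor eIF2. General protein synthesis then slows while ATF4 mRNA is translated more, and ATF4 with C/EBP partners binds composite C/EBP-ATF sites and raises transcription of genes that make, import and charge amino acids. Triple-negative breast cancer cells have been studied for their reliance on serine and asparagine synthesis, and both pathways are among the targets of ATF4. An mRNA level does not show how much ATF4 protein a cell makes, because that step is controlled in translation.

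The composite site is shown here as a sequence feature that some of these genes share. Promoters of 250 bases before to 50 after the start were available from RefSeq (GRCh38.p14) for 30 of the 36 members and were searched on both strands for the letters TGATGNAA, a form of the C/EBP-ATF site. It was present in at least 1 promoter of 10 of the 30 (33.3%), against 15.4% of 123 other listed genes, 2.75% of the 11502 tested genes matched by symbol and 4.46% of all 27305 genes in the table. Counted by promoter, since a gene can have several, the shares were 22.7% of the members' 44 promoters, 2.03% of 16633 promoters of tested genes and 3.62% of all 35116. Of the 16 synthetases with a promoter in the table, 7 held it. A match describes letters and does not show binding. The 8 stretches below are 30 bases long on the strand of the gene, and the capitals mark the match, in either orientation. The first 6 are from members that were called lower in ERβ1 over control cells, and the last 2 from members that were not called.
ASNS, chr7:97872458-97872487, minus strand: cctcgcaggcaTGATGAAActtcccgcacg
CHAC1, chr15:40953251-40953280, plus strand: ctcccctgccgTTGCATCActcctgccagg
CEBPG, chr19:33374060-33374089, plus strand: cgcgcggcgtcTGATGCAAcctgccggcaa
AARS1, chr16:70289675-70289704, minus strand: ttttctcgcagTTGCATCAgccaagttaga
NARS1, chr18:57621804-57621833, minus strand: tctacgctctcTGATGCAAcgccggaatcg
IARS1, chr9:92293692-92293721, minus strand: ttttcagcgcgTTGCATCAcctccgtgcgc
CARS1, chr11:3057407-3057436, minus strand: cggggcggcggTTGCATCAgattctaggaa
MARS1, chr12:57488053-57488082, plus strand: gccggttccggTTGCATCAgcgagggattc

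Library totals lay between 39902456 and 55387538 estimated counts, and the lowest count of any member in a library was 950 (DDIT3), so counting error was small for every member. ESR2 stood at 82.2 to 87.7 counts per 1000000 (CPM) in ERβ1 cells with CLI and at 115 to 118 CPM in ERβ1 cells, against 0.132 to 0.14 CPM in control cells, which fits the labels. All 6 markers of this mesenchymal-like line were present at 1 CPM or more, with summed levels of 5530 to 5880 CPM in ERβ1 cells with CLI, 5710 to 5870 CPM in ERβ1 cells and 6810 to 7180 CPM in control cells. Among markers of other cells, 6 of 9 luminal and 2 of 5 fibroblast genes reached 1 CPM. Summed fibroblast markers were at 9.99 to 14.9 CPM in ERβ1 cells with CLI, 9.18 to 10.6 CPM in ERβ1 cells and 7.1 to 9.44 CPM in control cells. Summed luminal markers, mostly keratins, were at 1110 to 1200, 1090 to 1180 and 1220 to 1260 CPM in the same order of groups. Single luminal genes differed in direction. ESR1 averaged 2.27, 0.0891 and 0.00776 CPM in that order and CDH1 2.54, 1.33 and 0.12 CPM. PGR and FOXA1 were also higher in both receptor groups, at 0.156 CPM or less, and KRT18 changed little. GATA3, EPCAM, KRT8 and KRT19 averaged lower in both receptor groups than in control cells. The part of these differences in the results was not tested. In both receptor groups library 2 stood farther from the others of its group than libraries 1 and 3 did from each other.

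Most of the 36 genes were lower in ERβ1 cells than in control cells. At an adjusted p under 0.05 in edgeR's quasi-likelihood test, 23 were lower, none was higher and 13 were not called, while 10.7% of all genes tested were called lower and 10.7% higher. At p under 0.05 without adjustment no member was higher in ERβ1 cells either, and DESeq2 and limma called none higher. Among the 6920 genes at least as abundant in CPM as the least abundant member, 18.2% were called lower. The median log2 fold change over the members was -0.21, with a range of -0.83 to 0.12, and the median over all genes was 0.00. In 27 members every ERβ1 library lay below every control library, as in 20% of all genes. Summed over the 36 genes, the level was 6390, 6540 and 6420 CPM in ERβ1 cells, against 7520, 7730 and 7460 CPM in control cells.

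**Figure D1:**
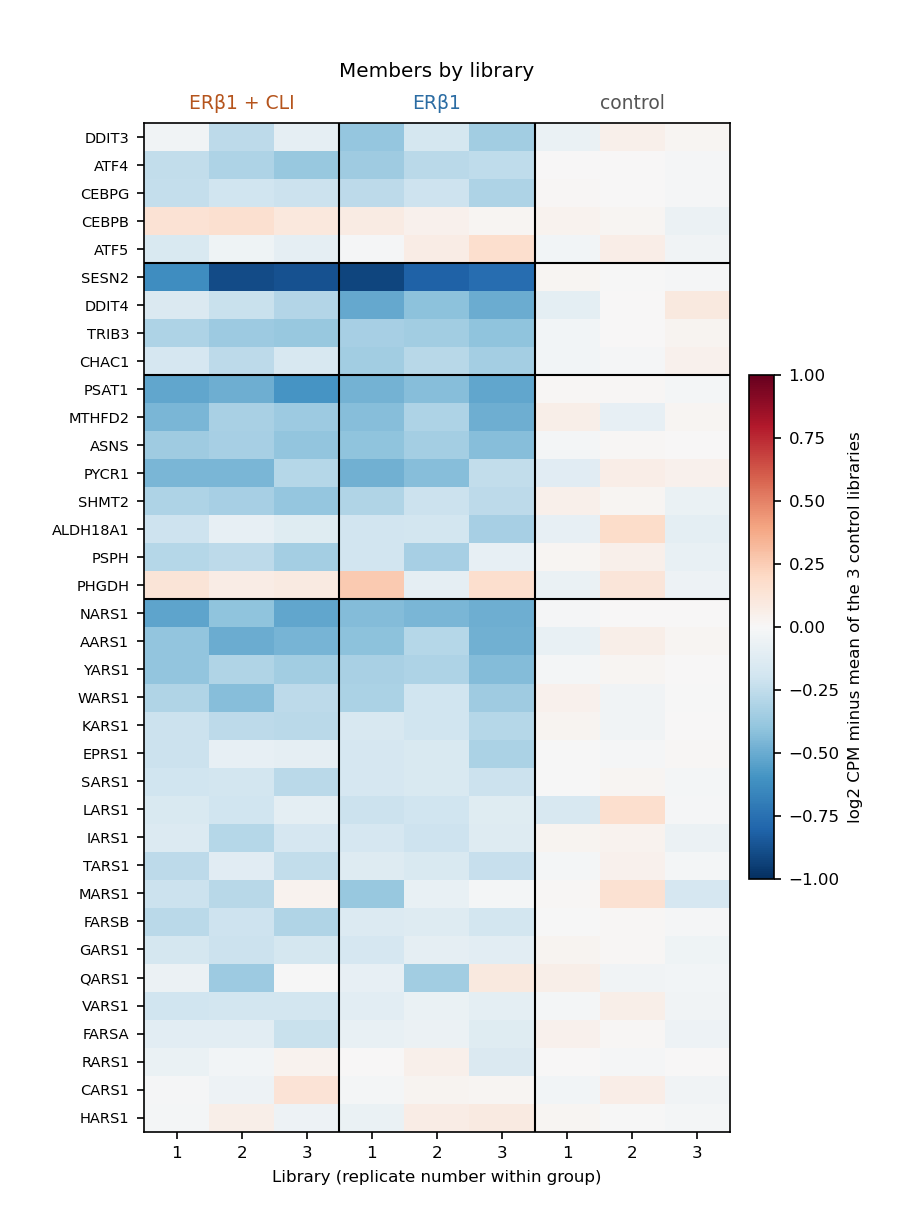
Each row is a member and each column a library, coloured by log2 CPM minus the mean of the 3 control libraries, with the groups in the order ERβ1 with CLI, ERβ1, control and lines between the functional classes. Blue fills most rows of both receptor groups, and SESN2 is the darkest row, while ATF5, CEBPB, PHGDH, CARS1, HARS1 and RARS1 are pale or partly red there.

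Among the transcription factors, ATF4 itself fell. Its level was 340, 327 and 311 CPM in ERβ1 cells with CLI, 316, 335 and 339 CPM in ERβ1 cells, and 406, 406 and 401 CPM in control cells. Both receptor groups lay below all control libraries and overlapped each other. The log2 fold change was -0.29 ± 0.04 (SE; edgeR adjusted p = 0.00113) for ERβ1 over control cells and -0.31 ± 0.04 (adjusted p = 0.000582) for ERβ1 cells with CLI over control cells. ATF4 (ENSG00000128272) lies at chr22:39519695-39522685 on the plus strand in GENCODE 29 (GRCh38).

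CEBPG, a C/EBP protein that pairs with ATF4, followed the same pattern, at 78.0, 80.5 and 79.4 CPM in ERβ1 cells with CLI, 77.0, 79.7 and 74.5 CPM in ERβ1 cells, and 92.9, 92.5 and 91.3 CPM in control cells. It fell by 0.26 on the log2 scale in ERβ1 cells (SE 0.04; edgeR adjusted p = 0.00115), and the promoter stretch shown above holds the site 42 bases before 1 of its starts. DDIT3, which encodes the stress factor CHOP, stood at 29.4, 25 and 28.2 CPM in ERβ1 cells with CLI, 22.9, 26.7 and 23.6 CPM in ERβ1 cells, and 28.7, 31.1 and 30.5 CPM in control cells. Only the ERβ1 cells without the ligand lay wholly below the control cells. Their log2 fold change was -0.30 ± 0.08 (edgeR adjusted p = 0.0266), and the adjusted p was 0.0788 to 0.0948 without control library 2 or 3 or ERβ1 library 1 or 3. DDIT3 shares 355 exon bases, 27.2% of its own, with MARS1 on the opposite strand, and the sources used here do not state whether counting used strand.

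The other two factors did not follow. CEBPB, a C/EBP factor of inflammation and differentiation, stood at 155, 156 and 150 CPM in ERβ1 cells with CLI, 148, 144 and 141 CPM in ERβ1 cells, and 143, 142 and 134 CPM in control cells. The libraries with CLI lay above all others, and CEBPB was the single member that edgeR called higher in any of the 3 comparisons, by 0.14 ± 0.04 on the log2 scale for ERβ1 cells with CLI over control cells (edgeR adjusted p = 0.0229). That call was lost without control library 3 or CLI library 1 or 2, with adjusted p of 0.0545 to 0.0659. ATF5, a related factor whose mRNA is also translated under eIF2 phosphorylation, stood at 32.8, 35.5 and 34.2 CPM in ERβ1 cells with CLI, 36.1, 38.4 and 41.0 CPM in ERβ1 cells, and 35.8, 38.2 and 35.5 CPM in control cells. It passed the test in no comparison, and it shares 626 exon bases with NUP62 on the opposite strand.

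All 4 stress effectors and growth brakes fell in ERβ1 cells, with a median log2 fold change of -0.42. SESN2, a leucine sensor that restrains the growth kinase complex mTORC1, had the largest change of the 36 members. It stood at 36.6, 30.2 and 30.8 CPM in ERβ1 cells with CLI, 29.8, 32.0 and 33.2 CPM in ERβ1 cells, and 56.9, 56.0 and 55.7 CPM in control cells. The receptor groups overlapped and both lay far below the control cells. The log2 fold change was -0.83 ± 0.08 for ERβ1 over control cells (edgeR adjusted p = 0.000128) and -0.79 ± 0.08 with CLI over control cells (adjusted p = 0.00011). The 145 genes tested within 5 Mb of SESN2 (chr1:28259527-28282491) had a median log2 fold change of -0.22 in ERβ1 over control cells. That was the lowest such median of any member, shared with YARS1.

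DDIT4, which encodes the mTORC1 inhibitor REDD1, was lower in both receptor groups than in control cells. Its level was 192, 182 and 174 CPM in ERβ1 cells with CLI, 149, 160 and 150 CPM in ERβ1 cells, and 198, 213 and 227 CPM in control cells. The 3 groups did not overlap, and the libraries with CLI lay between the others. It fell by 0.48 on the log2 scale in ERβ1 cells (SE 0.06; edgeR adjusted p = 0.000605). With CLI over control cells the log2 fold change was -0.22 ± 0.06 (adjusted p = 0.0223), and that call was lost without control library 2 or 3 or CLI library 2 or 3, with adjusted p of 0.0587 to 0.0785. Between ERβ1 cells with CLI and ERβ1 cells it was not called by edgeR (0.26 ± 0.06, adjusted p = 0.0827).

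TRIB3, a pseudokinase that is induced by ATF4 and restrains it, stood at 92.4, 88.8 and 87.9 CPM in ERβ1 cells with CLI, 90.6, 89.7 and 86.5 CPM in ERβ1 cells, and 112, 114 and 116 CPM in control cells. Its log2 fold change was -0.36 ± 0.04 in ERβ1 cells (edgeR adjusted p = 0.000185) and -0.35 ± 0.04 with CLI (adjusted p = 0.000154), each over control cells. CHAC1, an enzyme that breaks down glutathione, stood at 39.5, 37.2 and 39.9 CPM in ERβ1 cells with CLI, 34.9, 36.8 and 35.2 CPM in ERβ1 cells, and 43.6, 44.1 and 45.8 CPM in control cells. Again the libraries with CLI lay between the other groups without overlap. CHAC1 fell by 0.32 on the log2 scale in ERβ1 cells (SE 0.05; adjusted p = 0.00132) and by 0.20 with CLI (SE 0.05; adjusted p = 0.0122), both over control cells.

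**Figure D2:**
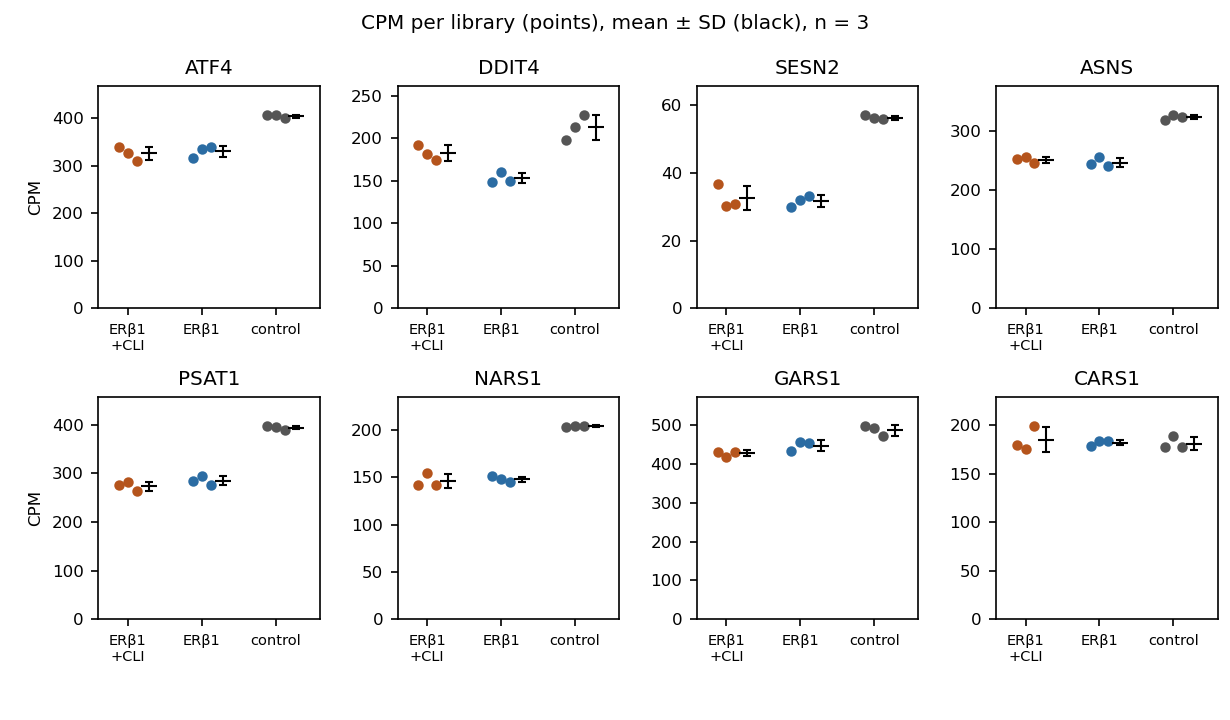
CPM of 8 members in each library (points) with the mean and SD of each group (black, n = 3), in the order ERβ1 with CLI, ERβ1, control, on axes that start at 0. SESN2 averaged 32.5, 31.7 and 56.2 CPM in these groups, DDIT4 separates all 3, and CARS1 overlaps throughout.

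Of the 8 enzymes, 5 fell in ERβ1 cells and 6 in ERβ1 cells with CLI, both over control cells, with medians of -0.32 and -0.35. The steps of serine synthesis differed among themselves. PSAT1, the transaminase of the pathway, stood at 275, 282 and 263 CPM in ERβ1 cells with CLI, 284, 294 and 276 CPM in ERβ1 cells, and 397, 396 and 390 CPM in control cells. It had the smallest p-value of the class in both comparisons with control cells, with a log2 fold change of -0.47 ± 0.04 in ERβ1 cells (edgeR adjusted p = 4.46e-05) and -0.53 ± 0.04 with CLI (adjusted p = 1.42e-05), each over control cells. PHGDH, which catalyses the first step of the pathway and is known to be low in this line, stood at 52.8, 50.8 and 51.5 CPM in ERβ1 cells with CLI, 58.0, 45.4 and 54.4 CPM in ERβ1 cells, and 46.1, 52.5 and 46.8 CPM in control cells. These ranges overlapped, and its log2 fold change of 0.12 ± 0.09 in ERβ1 over control cells was not called (adjusted p = 0.391). PSPH, the phosphatase of the last step, stood at 39.9, 40.6 and 38.4 CPM in ERβ1 cells with CLI, 42.6, 38.7 and 45.8 CPM in ERβ1 cells, and 49.3, 50.4 and 46.2 CPM in control cells. No receptor library reached the control range, but the test was passed only with CLI over control cells (log2 fold change -0.30 ± 0.06, adjusted p = 0.00967). Without the ligand the value was -0.20 ± 0.06 (adjusted p = 0.0575), and the adjusted p was 0.0315 without ERβ1 library 3 and 0.0367 with DESeq2.

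ASNS makes asparagine from aspartate and glutamine. It stood at 252, 256 and 246 CPM in ERβ1 cells with CLI, 244, 255 and 240 CPM in ERβ1 cells, and 319, 326 and 323 CPM in control cells. The receptor groups overlapped each other and no library of theirs came near the control range. The log2 fold change was -0.39 ± 0.03 in ERβ1 cells (edgeR adjusted p = 6.91e-05) and -0.36 ± 0.03 with CLI (adjusted p = 7.32e-05), each over control cells. ASNS (chr7:97852118-97872542) shares 1985 exon bases with the processed transcript AC079781.5 on the same strand, which had 3545 counts over the 9 libraries.

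The mitochondrial folate enzymes fell as well. SHMT2, which turns serine into glycine and charges folate with a carbon unit, stood at 237, 232 and 224 CPM in ERβ1 cells with CLI, 238, 253 and 245 CPM in ERβ1 cells, and 303, 297 and 279 CPM in control cells. Its log2 fold change was -0.26 ± 0.04 in ERβ1 cells (edgeR adjusted p = 0.00248) and -0.34 ± 0.04 with CLI (adjusted p = 0.000371), each over control cells. MTHFD2, which oxidises the folate carrier made by SHMT2, stood at 74.8, 81.8 and 79.7 CPM in ERβ1 cells with CLI, 76.4, 83.0 and 73.3 CPM in ERβ1 cells, and 107, 97.0 and 104 CPM in control cells. It fell by 0.41 on the log2 scale in ERβ1 cells (SE 0.06; adjusted p = 0.00163).

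The ends of proline synthesis are represented by PYCR1 and ALDH18A1. PYCR1, the reductase of the last step, stood at 138, 138 and 156 CPM in ERβ1 cells with CLI, 136, 141 and 160 CPM in ERβ1 cells, and 176, 199 and 196 CPM in control cells, and fell by 0.38 on the log2 scale in ERβ1 cells (SE 0.08; edgeR adjusted p = 0.00781). Its library 3 was the highest of both receptor groups. ALDH18A1, the enzyme of the first step from glutamate, stood at 111, 121 and 117 CPM in ERβ1 cells with CLI, 112, 112 and 101 CPM in ERβ1 cells, and 120, 145 and 119 CPM in control cells. Control library 2 stood apart there, and the log2 fold change of -0.24 ± 0.08 was not called by edgeR (adjusted p = 0.0626), while DESeq2 called it (adjusted p = 0.0295), as did edgeR with library number as a block (0.0385).

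**Figure D3:**
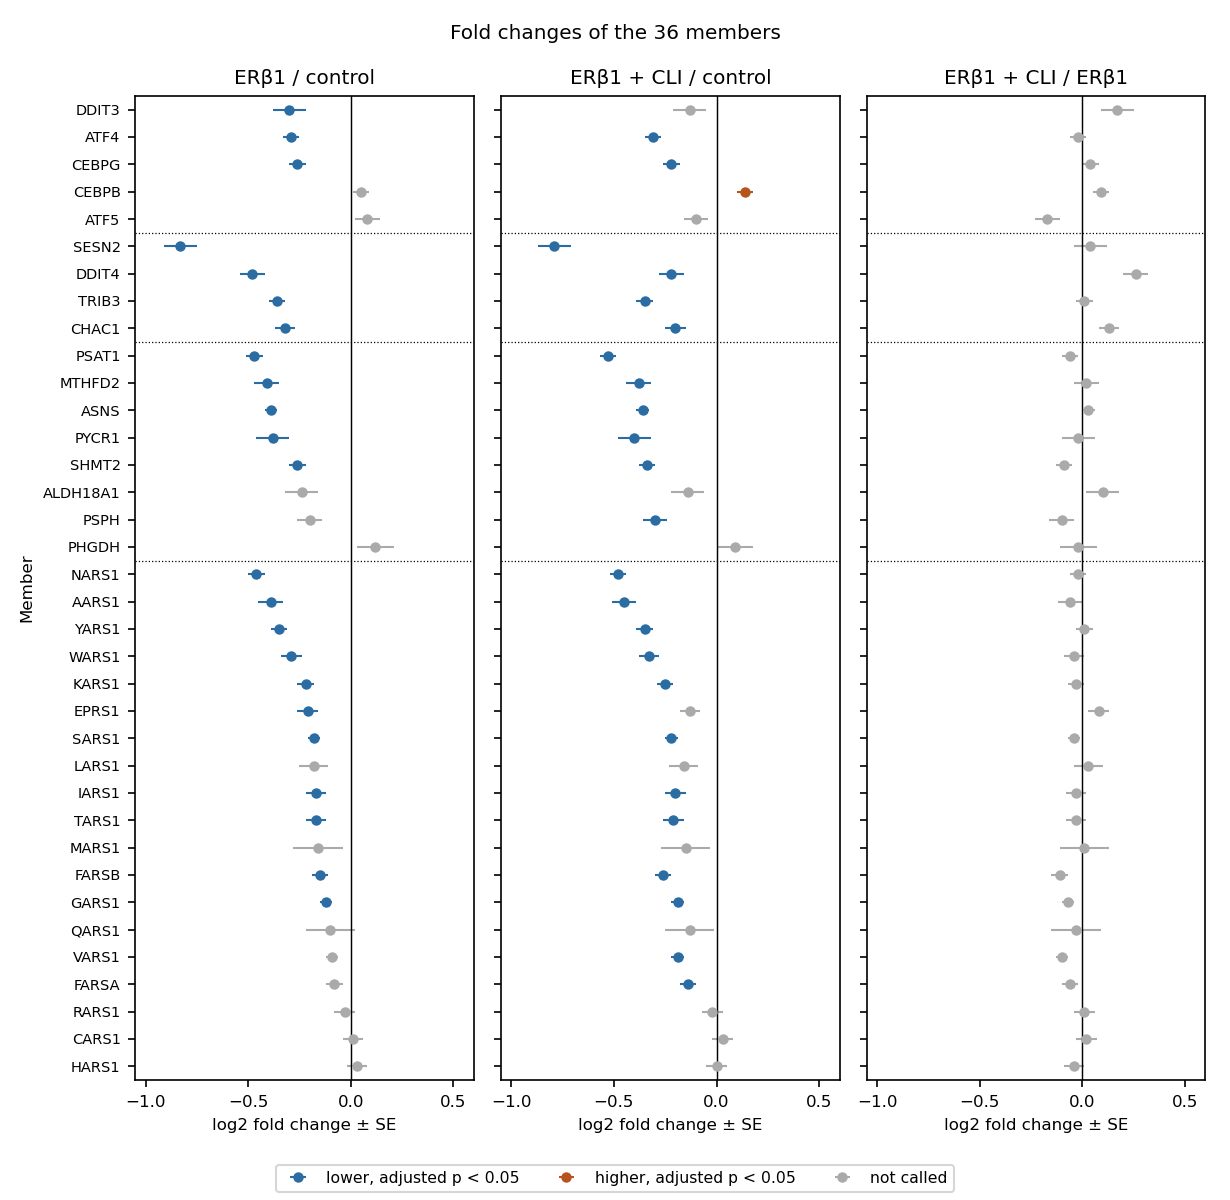
Points are log2 fold changes of the 36 members with their standard errors from edgeR, for ERβ1 over control cells, ERβ1 cells with CLI over control cells and ERβ1 cells with CLI over ERβ1 cells, with dotted lines between the functional classes. The first 2 panels, which share the control libraries, lie mostly left of 0, and in the third no point is coloured as called.

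The 19 synthetases load amino acids onto their tRNAs in the cytosol. In ERβ1 over control cells 11 of them fell and 8 were not called, with a median log2 fold change of -0.17. The 4 with the largest falls load asparagine, alanine, tyrosine and tryptophan. NARS1, for asparagine (chr18:57600656-57622213), stood at 142, 154 and 142 CPM in ERβ1 cells with CLI, 151, 148 and 145 CPM in ERβ1 cells, and 203, 204 and 204 CPM in control cells. Its log2 fold change was -0.46 ± 0.04 in ERβ1 cells (edgeR adjusted p = 7.11e-05) and -0.48 ± 0.04 with CLI (adjusted p = 3.59e-05), each over control cells. AARS1, for alanine, stood at 175, 163 and 166 CPM in ERβ1 cells with CLI, 173, 188 and 165 CPM in ERβ1 cells, and 217, 239 and 232 CPM in control cells, and fell by 0.39 on the log2 scale in ERβ1 cells (SE 0.06; adjusted p = 0.0017). In both genes the receptor groups overlapped each other and stayed clear of the control range.

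YARS1, for tyrosine, stood at 237, 254 and 246 CPM in ERβ1 cells with CLI, 250, 252 and 231 CPM in ERβ1 cells, and 308, 316 and 313 CPM in control cells, and its log2 fold change was -0.35 ± 0.04 in ERβ1 over control cells (edgeR adjusted p = 0.000428). WARS1, for tryptophan, is also induced by interferon. It stood at 174, 159 and 178 CPM in ERβ1 cells with CLI, 172, 186 and 168 CPM in ERβ1 cells, and 220, 209 and 214 CPM in control cells. Its log2 fold change was -0.29 ± 0.05 in ERβ1 cells (adjusted p = 0.00562). In the same comparison 8 of 14 tested interferon-induced genes were higher, against 10.7% of all genes tested, and none was lower. Genes within 5 Mb of YARS1 had a median log2 fold change of -0.22 in ERβ1 over control cells, and those around AARS1 and NARS1 medians of -0.15 each. With that around SESN2, these were the lowest such medians of any member. Around the other members the medians ranged from -0.11 (KARS1) to 0.18 (LARS1), with -0.06 around ASNS and 0.03 around WARS1. SESN2 and YARS1 (chr1:32775237-32818153) lie within 5 Mb of each other, so their sets of neighbours share genes.

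Smaller falls were seen in SARS1, KARS1 and EPRS1. SARS1, for serine, stood at 284, 286 and 269 CPM in ERβ1 cells with CLI, 289, 293 and 281 CPM in ERβ1 cells, and 325, 331 and 321 CPM in control cells, a log2 fold change of -0.18 ± 0.03 in ERβ1 over control cells (edgeR adjusted p = 0.00514). KARS1 encodes both the cytosolic and the mitochondrial enzyme for lysine. It stood at 120, 116 and 115 CPM in ERβ1 cells with CLI, 124, 121 and 114 CPM in ERβ1 cells, and 142, 136 and 140 CPM in control cells, and fell by 0.22 on the log2 scale in ERβ1 cells (SE 0.04; adjusted p = 0.00608). EPRS1, which loads both glutamate and proline, stood at 278, 306 and 303 CPM in ERβ1 cells with CLI, 287, 290 and 259 CPM in ERβ1 cells, and 321, 321 and 326 CPM in control cells. It was called in ERβ1 over control cells alone (log2 fold change -0.21 ± 0.05, adjusted p = 0.0187), and that call was lost without any 1 of the control libraries or ERβ1 library 3, with adjusted p of 0.0562 to 0.0641.

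In 3 synthetases (15.8%, against 9.26% of all genes) every library with CLI lay below every ERβ1 library without it. None of them was called by edgeR between these groups (adjusted p 0.242 to 0.44). FARSB, a subunit of the phenylalanine enzyme, stood at 49.5, 51.9 and 48.5 CPM in ERβ1 cells with CLI, 54.4, 54.6 and 52.8 CPM in ERβ1 cells, and 59.8, 60.3 and 59.4 CPM in control cells, 3 ranges that did not overlap. Its log2 fold change was -0.26 ± 0.04 with CLI (edgeR adjusted p = 0.00126) and -0.15 ± 0.04 without it (adjusted p = 0.0236), each over control cells. GARS1, for glycine, stood at 431, 418 and 430 CPM in ERβ1 cells with CLI, 432, 457 and 453 CPM in ERβ1 cells, and 497, 491 and 471 CPM in control cells, with values of -0.19 ± 0.03 with CLI (adjusted p = 0.00304) and -0.12 ± 0.03 without it (adjusted p = 0.0306). VARS1, for valine, stood at 218, 220 and 220 CPM in ERβ1 cells with CLI, 232, 238 and 233 CPM in ERβ1 cells, and 246, 261 and 244 CPM in control cells, and was called with CLI only (-0.19 ± 0.03, adjusted p = 0.00279). The calls without CLI for FARSB and GARS1 depended on the libraries and the processing used. Both were lost with upper quartile scaling (edgeR adjusted p 0.0571 and 0.0666) and without a filter (0.102 and 0.09). FARSB was lost without any 1 control or ERβ1 library (adjusted p 0.0536 to 0.094), and GARS1 without control library 1 or 2 or ERβ1 library 1 or 3 (0.0653 to 0.114).

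IARS1, for isoleucine, averaged 443 ± 24.3 CPM in ERβ1 cells with CLI, 452 ± 12.2 CPM in ERβ1 cells and 508 ± 18.5 CPM in control cells (SD, n = 3 each), and TARS1, for threonine, 602 ± 35.6, 616 ± 22.5 and 694 ± 17.4 CPM in the same groups. Each had a log2 fold change of -0.17 ± 0.05 in ERβ1 over control cells (edgeR adjusted p = 0.0291 for IARS1 and 0.0282 for TARS1). The IARS1 call was lost without control library 1 or 2 or any 1 ERβ1 library (adjusted p 0.0523 to 0.108), and that of TARS1 without any 1 control library or ERβ1 library 2 or 3 (0.0606 to 0.111). The TARS1 call was also lost with upper quartile scaling (0.0539). With CLI both were also lower than in control cells, and both calls were lost without control library 2 (adjusted p 0.0544 for IARS1 and 0.0505 for TARS1). FARSA, the other subunit of the phenylalanine enzyme, averaged 81.9 ± 3.7 CPM in ERβ1 cells with CLI and 90.4 ± 3.16 CPM in control cells (adjusted p = 0.0432). That call was lost without control library 1 or 2 or any 1 receptor library (0.0522 to 0.145). It was also lost with upper quartile scaling (0.0911) and without a filter (0.0961).

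Passing the test in none of the 3 comparisons were 9 members. Besides ATF5, PHGDH and ALDH18A1 these were CARS1, HARS1, LARS1, MARS1, QARS1 and RARS1, which load cysteine, histidine, leucine, methionine, glutamine and arginine. CARS1 averaged 185 ± 12.8 CPM in ERβ1 cells with CLI, 182 ± 2.93 CPM in ERβ1 cells and 181 ± 6.99 CPM in control cells, and HARS1 88.3 ± 3.36, 90.6 ± 5.25 and 88.5 ± 1.14 CPM. Their log2 fold changes in ERβ1 over control cells were 0.01 ± 0.05 and 0.03 ± 0.05, and that of RARS1 was -0.03 ± 0.05. In QARS1, MARS1 and LARS1 the libraries of a group differed more among themselves. QARS1 stood at 172, 140 and 179 CPM in ERβ1 cells with CLI and 170, 141 and 192 CPM in ERβ1 cells, and averaged 179 ± 6.59 CPM in control cells, so that library 2 was low in both receptor groups. LARS1 averaged 270 ± 30.7 CPM in control cells, where library 1 was lowest at 241 CPM, and without that library it was called lower in both receptor groups (adjusted p = 0.0268 without CLI and 0.0317 with it).

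The site in the promoter did not split the members by size of change. The 10 members with TGATGNAA had a median log2 fold change of -0.22 in ERβ1 over control cells, with 8 called, and the 20 without it had a median of -0.21, with 12 called. CARS1 and MARS1 hold the letters TTGCATCA, as AARS1 and IARS1 do, and were not called. In ERβ1 over control cells the log2 fold change was 0.01 ± 0.05 for CARS1 and -0.16 ± 0.12 for MARS1. It was -0.39 ± 0.06 for AARS1 and -0.17 ± 0.05 for IARS1, so MARS1 differed from IARS1 mainly in its standard error.

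Within ERβ1 cells, CLI was read against ERβ1 cells without the ligand. In edgeR's test none of the 36 was called between ERβ1 cells with CLI and ERβ1 cells, against 1.47% of all genes tested (1.04% higher and 0.428% lower). At p under 0.05 without adjustment there were 6 members, or 16.7%, against 12.8% of all genes. Both shares were near those of all genes. DESeq2 called 1 (DDIT4, higher with CLI, adjusted p = 0.00514) and limma none. The median log2 fold change was -0.02, with a range of -0.17 to 0.26, and the summed level of the 36 genes was 6410, 6380 and 6420 CPM with CLI and 6390, 6540 and 6420 CPM without it. For ATF4 the difference was -0.02 ± 0.04, for ASNS 0.03 ± 0.03, for PSAT1 -0.06 ± 0.04 and for SESN2 0.04 ± 0.08.

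In 3 members all libraries with CLI lay above all ERβ1 libraries without it, against 9.53% of all genes, and in 5 they lay below, against 9.26%. Above were DDIT4 (log2 fold change 0.26 ± 0.06, edgeR adjusted p = 0.0827), CHAC1 (0.13 ± 0.05, adjusted p = 0.282) and CEBPB (0.09 ± 0.04, adjusted p = 0.341). Below were ATF5 (-0.17 ± 0.06, adjusted p = 0.254), FARSB (-0.11 ± 0.04, adjusted p = 0.265), VARS1 (-0.10 ± 0.03, adjusted p = 0.242), SHMT2 (-0.09 ± 0.04, adjusted p = 0.434) and GARS1 (-0.07 ± 0.03, adjusted p = 0.44). By class, the effectors had a median of 0.08, the factors 0.04, the enzymes -0.02 and the synthetases -0.03.

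Between ERβ1 cells with CLI and control cells, 24 members were lower, 1 was higher and 11 were not called, while 13.1% of all genes tested were called lower and 13.3% higher. Among the 6920 genes at least as abundant as the least abundant member, 22.3% were called lower. The median log2 fold change was -0.21, with a range of -0.79 to 0.14, and in 26 members all libraries with CLI lay below all control libraries, as in 21.2% of all genes. This comparison shares its control libraries with that of ERβ1 over control cells. Called lower in both were 21 members, DDIT3 and EPRS1 were called without CLI alone, and PSPH, FARSA and VARS1 with CLI alone. None of these 5 was called between ERβ1 cells with CLI and ERβ1 cells.

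Genes around the response were read from lists of the same pathway. Of all genes tested, 10.7% were called lower and 10.7% higher in ERβ1 over control cells. With CLI over ERβ1 cells these shares were 0.428% and 1.04%. Amino acid transporters moved with the members in ERβ1 over control cells, where 7 of 15 fell, none was higher and the median log2 fold change was -0.23. SLC7A11, which imports cystine, averaged 246 ± 4.44 CPM in ERβ1 cells with CLI, 234 ± 5.64 CPM in ERβ1 cells and 323 ± 4.72 CPM in control cells, a log2 fold change of -0.46 ± 0.03 for ERβ1 over control cells (edgeR adjusted p = 1.82e-05). SLC38A2, a carrier of small neutral amino acids, fell by 0.49 (SE 0.04; adjusted p = 7.55e-05), and SLC7A1, a carrier of arginine and lysine, by 0.35 (SE 0.03; adjusted p = 0.000203). With CLI over ERβ1 cells the single transporter called was SLC6A9, a glycine carrier, at 39.5 ± 1.04 CPM with CLI, 25.6 ± 2.96 CPM in ERβ1 cells and 22.9 ± 0.0998 CPM in control cells (log2 fold change 0.63 ± 0.08, adjusted p = 0.00437).

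Of 24 other ATF4 targets tested, 11 were lower in ERβ1 over control cells and 1 was higher (2 without ERβ1 library 2 or control library 1), with a median of -0.15. NUPR1, a stress-induced chromatin factor, averaged 1.94 ± 0.318 CPM in ERβ1 cells with CLI, 1.84 ± 0.207 CPM in ERβ1 cells and 6.11 ± 0.472 CPM in control cells (log2 fold change -1.72 ± 0.15, edgeR adjusted p = 9.56e-05). LAMP3, a lysosomal membrane protein, moved the other way, at 18.1 ± 0.349 CPM in ERβ1 cells with CLI, 18.7 ± 1.91 CPM in ERβ1 cells and 7.15 ± 0.656 CPM in control cells (1.39 ± 0.09, adjusted p = 2.24e-05). Of 20 other enzymes of serine, folate and proline metabolism, 6 were lower and none was higher (1 without ERβ1 library 2 or CLI library 2). MTHFD1L, which acts after MTHFD2 in mitochondria, averaged 62.6 ± 1.99 CPM in ERβ1 cells with CLI, 64.2 ± 2.46 CPM in ERβ1 cells and 86.5 ± 5.29 CPM in control cells (-0.43 ± 0.05, adjusted p = 0.000637).

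Upstream of ATF4, a list of 21 genes held eIF2, its kinases, exchange factor and phosphatase genes and 6 regulators (GCN1, IMPACT, NCK1, DNAJC3, DELE1 and OMA1). In ERβ1 over control cells 2 were higher (9.52%) and 3 lower (14.3%), with a median of -0.05. Both shares were near those of all genes tested, 10.7% higher and 10.7% lower. Lower were EIF2S2, PPP1R15A and the regulator DNAJC3, and higher were EIF2S1 and EIF2B2. The eIF2 genes thus differed in direction, with log2 fold changes of 0.22 ± 0.04 for EIF2S1 (edgeR adjusted p = 0.00615) and -0.18 ± 0.04 for EIF2S2 (0.0106). EIF2B2, a subunit of the exchange factor, was higher, at 81.0 ± 1.92 CPM in ERβ1 cells with CLI, 79.0 ± 0.73 CPM in ERβ1 cells and 62.3 ± 1.1 CPM in control cells (log2 fold change 0.34 ± 0.03 for ERβ1 over control cells, edgeR adjusted p = 0.000189). PPP1R15A, an ATF4 target that helps remove the phosphate from eIF2, fell by 0.20 (adjusted p = 0.00477). None of the 4 eIF2 kinase genes was called. Among the 17 mitochondrial synthetases 3 were lower (17.6%, against 10.7% of all genes tested) and none was higher, with a median of -0.06. That count was 0 without ERβ1 library 1 or 3 and 1 or 2 without any other single library. CARS2, for cysteine in mitochondria, had the largest change there (-0.52, adjusted p = 0.0165). Its adjusted p was 0.0628 without ERβ1 library 1 and 0.0522 without ERβ1 library 3. Control library 3 stood apart for CARS2, with control values of 58.9, 54.6 and 78.2 CPM, and the log2 fold change ranged from -0.61 to -0.34 over the alternatives. Of 5 other cytosolic synthetase genes and scaffold proteins, the scaffold EEF1E1 fell by 0.35 (SE 0.05; adjusted p = 0.000918).

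**Figure D4:**
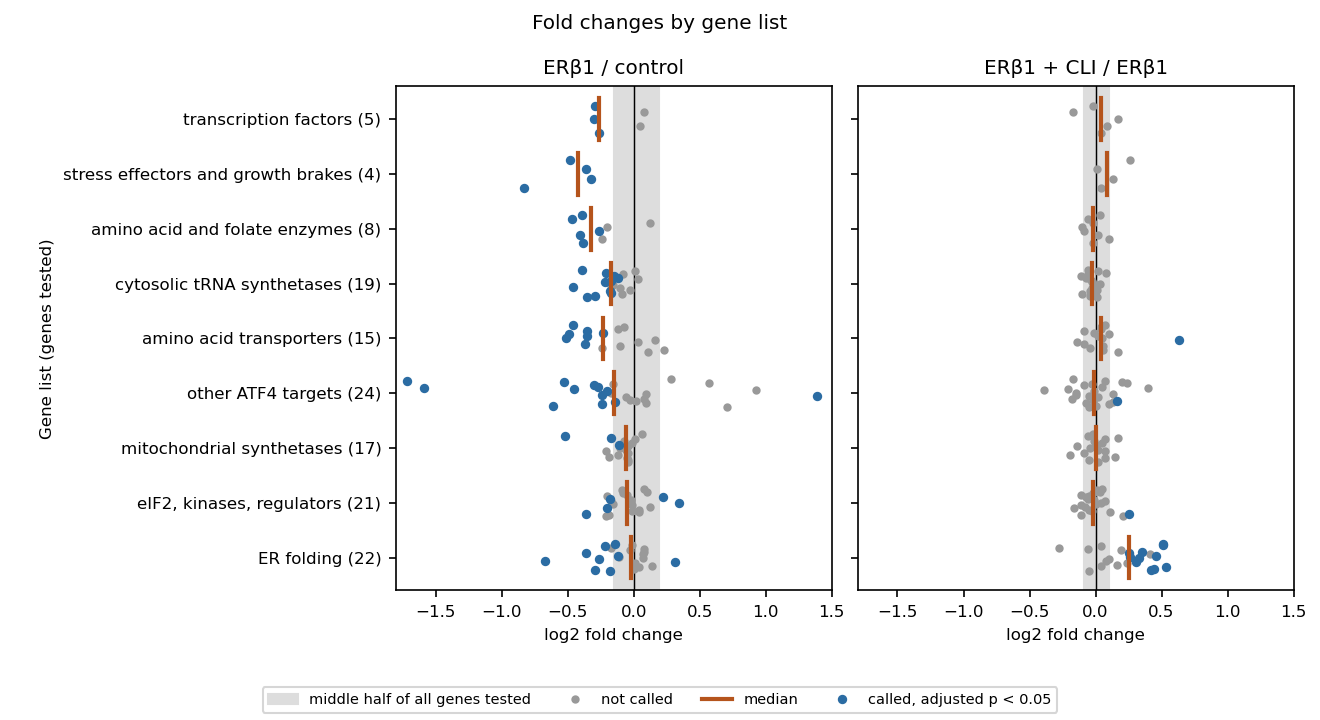
Each point is a gene tested, placed by its log2 fold change from edgeR and by list, for ERβ1 over control cells (left) and ERβ1 cells with CLI over ERβ1 cells (right); orange bars are medians, blue points passed an adjusted p under 0.05, and the grey band spans the 25th to the 75th percentile of all genes tested. On the left the medians of the 4 member classes and of the transporters lie below the band, and of the lists plotted on the right the ER folding list, with a median of 0.25, lies beyond it.

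The ER folding genes, which answer to XBP1 and ATF6 and not mainly to ATF4, gave calls in both comparisons. In ERβ1 over control cells 8 of 22 were lower and 1 was higher, against 10.7% each of all genes tested, with a median log2 fold change of -0.02. Of the same 22 genes 11 were higher in ERβ1 cells with CLI than in ERβ1 cells, against 1.04% of all genes tested. None was lower, and the median log2 fold change was 0.25. HSPA5, the main ER chaperone, averaged 976 ± 23.3 CPM in ERβ1 cells with CLI, 686 ± 14.2 CPM in ERβ1 cells and 758 ± 5.91 CPM in control cells. Its log2 fold change was 0.51 ± 0.03 for CLI over ERβ1 cells (edgeR adjusted p = 7.75e-05) and -0.14 ± 0.03 for ERβ1 over control cells (adjusted p = 0.00572). HSP90B1, another ER chaperone, averaged 1350 ± 35.5 CPM in ERβ1 cells with CLI, 950 ± 12.6 CPM in ERβ1 cells and 959 ± 22.8 CPM in control cells (0.51 ± 0.03 for CLI over ERβ1 cells, adjusted p = 8.74e-05). The count of 11 was 6 in a fit of the 6 receptor libraries with library number as a block and 7 with receptor libraries 1 and 3 only, both chosen after seeing the data. DNAJC3, an ER cochaperone that inhibits eIF2 kinases, was called higher with CLI over ERβ1 cells (0.25 ± 0.05, adjusted p = 0.0365), a call lost with library number as a block (0.0961) and without any 1 library other than CLI library 1 (0.0569 to 0.138).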

How the data were processed

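RNA was measured in 9 libraries of MDA-MB-231 cells in 3 groups. Per the labels' protocols, these were stranded TruSeq mRNA libraries read for 101 cycles on a NovaSeq instrument. The submitters' processing notes name Salmon 1.2.1 and edgeR 3.30.3, Trimmomatic 0.38, FastQC and bcl2fastq 2.20, and the GRCh38 build. The authors deposited estimated counts per gene with no normalization stated, and log2 CPM of 18934 genes scaled by TMM, used here as an alternative. In the labels the cell line's number goes up by library, but their growth protocol gives only MDA-MB-231. Columns were matched by treatment and replicate number.

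Estimated counts were rounded. In R 4.3.3 and edgeR 4.0.16, filterByExpr kept 17058 genes, libraries were scaled by TMM, and 1 quasi-likelihood fit of all 9 gave 3 contrasts with Benjamini-Hochberg adjustment over all genes. Standard errors are the log2 fold change divided by the root of F. CPM used the TMM-scaled totals. The script was tested on simulated data. GENCODE release 29 gave positions for 58064 gene IDs. Exact permutation of 3 against 3 libraries cannot go below p = 0.1 and was not used.

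The members and all lists were chosen with earlier results of these data known. Genes named outside the members are drawn from those of each list with the smallest p-values in ERβ1 over control cells and those called, with the smallest p-values, for CLI over ERβ1 cells. Among the members, values by library are given for all factors, effectors and enzymes. They are also given for the synthetases with the smallest p-values in ERβ1 over control cells or with CLI over ERβ1 cells. QARS1 and LARS1 have them in part, and the other synthetases at most have means. Same-numbered libraries of the groups with and without CLI deviated together (r = 0.13, 0.416 and 0.146 over 12625 genes). Libraries 1 and 3 correlated slightly more across numbers (0.165 and 0.18), so a pairing by number is not established for them. The main fit had no block, and library number as a block was an alternative. Between other groups same-numbered libraries did not deviate together (r between -0.0883 and 0.0612). A further list of cell type markers is not reported here.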

Additional observations from a re-analysis of the deposited data

How the results depend on the processing

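Over 19 alternatives in scaling, filter, tool, block or libraries, 2 of them added after seeing the data, no called member changed direction. The 23 calls in ERβ1 over control cells were kept in 397 of 437 refits, and the 25 with CLI over control cells in 445 of 475. Members not called became called in 5 of 247, 1 of 209 and, with CLI over ERβ1 cells, 1 of 684 refits. Members called lower in ERβ1 over control cells, 23 in all, numbered 20 with upper quartile scaling, 21 without a filter, 25 with DESeq2 and 17 to 23 with a library left out. With CLI over control cells the lower count of 24 was 20 to 24 with a library left out. The higher count of 1 (CEBPB) was 0 to 1 with a library left out, 0 without a filter, 0 in the block fit of the 6 libraries alone and 0 with receptor libraries 1 and 3 only. With CLI over ERβ1 cells DESeq2 called 1 member higher, and no member was called with any library left out. The median log2 fold change in ERβ1 over control cells stayed between -0.23 and -0.19 with a library left out.

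With library number as a replicate block, 22 members were lower in ERβ1 over control cells. In the same fit 24 were lower and 1 higher with CLI over control cells, and 0 were called with CLI over ERβ1 cells. Between the groups with and without CLI, the libraries numbered 2 deviated together (r = 0.416). A pairing by number is not established for the other libraries. Over all genes with CLI over ERβ1 cells, the block fit called 104 higher and 32 lower, against 178 and 73 without it, and DESeq2 354 and 229. Depth did not limit the members, whose counts were at least 950 in every library. The reasons for lost calls were not tested.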

Other observations

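Of the 19 synthetases, 7 belong to the multi-synthetase complex (EPRS1, IARS1, KARS1, LARS1, MARS1, QARS1 and RARS1), a split made after the values were seen and given with no test. In ERβ1 over control cells 3 of these 7 were lower, with a median log2 fold change of -0.17, and 8 of the 12 outside the complex were lower, with a median of -0.16. The range was -0.22 to -0.03 within the complex and -0.46 to 0.03 outside it. With CLI over control cells 2 of the 7 and 10 of the 12 were lower, with medians of -0.15 and -0.22. Of all genes tested, 10.7% were called lower in ERβ1 over control cells and 13.1% with CLI over control cells. The complex members not called with CLI over control cells were EPRS1 (-0.13 ± 0.05), LARS1 (-0.16 ± 0.07), MARS1 (-0.15 ± 0.12), QARS1 (-0.13 ± 0.12) and RARS1 (-0.02 ± 0.05). The counts thus depend on the standard errors as well as on the size of change.

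As a measure of how closely libraries repeated the members' values, the median coefficient of variation over the 36 genes was 3.78% in ERβ1 cells with CLI, 3.76% in ERβ1 cells and 3.08% in control cells, and QARS1 was the most variable member in both receptor groups (12.7% with CLI and 15.1% without it).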
